A study of Homo sapiens with 4 samples.

Results

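This is an account of the RNAs of human chromosome 7 that surround MET and EGFR, the receptor genes of the long and the short arm, in 2 drug-resistant lung cancer cell lines and their parents. The members were the 226 circular RNAs (circRNAs) that mapped to chromosome 7 and whose host gene was not MET or EGFR, and the 494 long non-coding RNA (lncRNA) transcripts of chromosome 7 that matched an annotated transcript exactly, 720 of the 58548 RNAs in both tables. A circRNA is a closed loop that forms when an exon end is joined back to an upstream exon start, so it carries exons of its host gene. The values were read along the chromosome in bins of 5 Mb to see whether the neighbours of MET and EGFR changed with them.

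A549 and HCC827 are established non-small-cell lung cancer lines. The A549/DDP cells, which the labels call A549/R, were made resistant to cisplatin, and the HCC827/GR cells, which the labels call HCC827/R, were made resistant to gefitinib by the paper's methods but are given as cisplatin-resistant in the labels. Both were raised on rising doses over months, and the drugs were withdrawn before RNA was taken. Each of the 4 lines gave 1 library of ribosomal RNA-depleted total RNA, so no difference below has a replicate check and no p-value was computed, and whether a resistant line is a clone or a mixture is not stated in the sources used here. Because these are bulk libraries, fewer cells of a type and less RNA per cell cannot be told apart.

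MET is the receptor of hepatocyte growth factor and EGFR that of epidermal growth factor. Both are tyrosine kinases that pass growth signals to the same downstream kinases. Gefitinib blocks EGFR, and extra copies of MET are a known route by which EGFR-mutant lung cancer cells, HCC827 among them, escape EGFR inhibitors. An amplified stretch of DNA often carries neighbouring genes with it, which is why neighbours are of interest, but only RNA was measured here.

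The circRNA counts summed to between 1587755 and 2098414 a library, and chromosome 7 members made up 4.47 to 5.85% of them. The sums were 7.06 to 8.80% of the library totals that the authors' FPKM imply. Reads of linear host mRNA on the same exons were not separated from these counts. The HCC827/GR library stood apart in both tables. In it 40 of the 226 chromosome 7 circRNAs had 0 counts, against 1 to 8 in the other libraries, and 92 of the 494 lncRNA transcripts were above 0, against 253 to 362. Over the whole tables the same held, with 574 of 3840 circRNAs at 0 in HCC827/GR against 7 to 62 elsewhere. The part of this in the differences below was not tested. Of the markers looked up, circRNAs were found for KRT7 of 9 epithelial genes, FN1 and ZEB1 of 5 mesenchymal genes and none of 3 haematopoietic genes. The KRT7 circRNA had 1471 counts in A549 and 1126 in A549/DDP, against 239 in HCC827 and 1114 in HCC827/GR. Its count was thus lowest in HCC827. The mesenchymal sum was 276 in A549 and 110.5 in A549/DDP, against 172 in HCC827 and 0 in HCC827/GR.

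The promoters of 4 neighbours are shown because the results turn on their genes. TES and AC002066.1, an lncRNA at the CAV2-DT locus, lie before MET and had more RNA in HCC827/GR. ST7 lies after MET and its circRNAs stayed within 2-fold of HCC827 there. NIPSNAP2, the current name of GBAS, holds the nearest circRNA to EGFR. The AC002066.1 transcript ENST00000439070, described below, lies 0.21 Mb before MET and CAV2-DT 0.17 Mb. The CAV2-DT window thus does not cover the start of that transcript. Each sequence is the RefSeq promoter on GRCh38.p14, from 250 bases before to 50 after the gene's start, read in the gene's own direction. The positions are chr7:116210289-116210588 on the plus strand, chr7:116499467-116499766 on the minus strand, chr7:116953251-116953550 on the plus strand and chr7:55964335-55964634 on the plus strand. Capitals mark matches on either strand to the GC box GGGCGG, the TATA box TATAAA or the AP-1 site TGANTCA.
TES: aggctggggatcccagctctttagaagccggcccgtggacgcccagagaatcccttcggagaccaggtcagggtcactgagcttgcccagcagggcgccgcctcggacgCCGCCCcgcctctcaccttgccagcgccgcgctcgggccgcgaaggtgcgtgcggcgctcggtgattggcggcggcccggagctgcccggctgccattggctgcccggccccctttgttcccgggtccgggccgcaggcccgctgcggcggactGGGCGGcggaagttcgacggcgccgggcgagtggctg
CAV2-DT: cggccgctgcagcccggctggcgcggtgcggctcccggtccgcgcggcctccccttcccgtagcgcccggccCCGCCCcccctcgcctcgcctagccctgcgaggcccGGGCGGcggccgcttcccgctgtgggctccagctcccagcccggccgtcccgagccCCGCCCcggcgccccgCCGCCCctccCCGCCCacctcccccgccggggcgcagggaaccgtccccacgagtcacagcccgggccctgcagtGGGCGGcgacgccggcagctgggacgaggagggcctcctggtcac
ST7: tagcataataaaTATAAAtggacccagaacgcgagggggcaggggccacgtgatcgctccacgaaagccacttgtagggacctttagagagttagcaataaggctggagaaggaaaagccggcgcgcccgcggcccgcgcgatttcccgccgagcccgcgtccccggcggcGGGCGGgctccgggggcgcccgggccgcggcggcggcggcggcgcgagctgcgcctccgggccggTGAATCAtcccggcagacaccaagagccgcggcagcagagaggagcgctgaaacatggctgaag
NIPSNAP2: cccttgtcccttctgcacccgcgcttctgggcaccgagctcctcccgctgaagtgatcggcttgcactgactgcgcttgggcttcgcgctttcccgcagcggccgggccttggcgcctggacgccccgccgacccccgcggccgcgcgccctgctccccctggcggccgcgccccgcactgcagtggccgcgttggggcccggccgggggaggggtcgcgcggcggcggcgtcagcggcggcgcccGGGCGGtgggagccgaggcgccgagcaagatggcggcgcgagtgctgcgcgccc
The TES promoter held 2 GC boxes, CAV2-DT 6, and ST7 and NIPSNAP2 1 each, while ST7 also held 1 TATA box and 1 AP-1 site. Over the 35116 promoters of the same length, 45.0% held a GC box, 11.5% a TATA box and 7.71% an AP-1 site. The 4 promoters had 38, 42, 39 and 47 CG dinucleotides, against a median of 14 over all promoters. The CAV2-DT window overlaps that of CAV2, which runs the other way, so its letters belong to both genes. A match is a run of letters and not a measured binding site.

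The circRNAs of MET itself set the scale for its neighbours. The 1-exon MET circRNA had 1989 counts in A549 and 2285.5 in A549/DDP, against 2444 in HCC827 and 11258 in HCC827/GR. The 4-exon MET circRNA had 1122.5, 1261, 1268 and 7064 counts in that order of libraries. Both were near one level in the first 3 libraries and far higher in HCC827/GR, at 6.09 times (95% interval 5.83 to 6.36) and 7.36 times (6.93 to 7.82) HCC827 after scaling each library to its total circRNA count. These intervals, like all below, are exact conditional Poisson intervals of a ratio of counts and cover counting error only.

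The 3 circRNAs that shared the 5 Mb bin of MET, from 115 to 120 Mb, were also higher in HCC827/GR when summed, but 1 gene carried the difference. Their counts summed to 917.5 in A549 and 1162 in A549/DDP, against 2133 in HCC827 and 3728 in HCC827/GR. The ratio of HCC827/GR to HCC827 was 2.31 (2.19 to 2.44), first of the 32 chromosome 7 bins with enough counts and number 19 of 527 bins over the genome, of which 4.74% were at 2 or more. The ratio of A549/DDP to A549 was 1.14 (1.04 to 1.24). Without TES the HCC827/GR ratio was 1.13.

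TES encodes testin, a LIM-domain protein of focal adhesions, and lies 0.42 Mb before MET. Its 4-exon circRNA (circRNA1239, chr7:116249020-116252476) had 483.5 counts in A549 and 675 in A549/DDP, against 830 in HCC827 and 2611 in HCC827/GR. The other libraries lay between 483.5 and 830, and HCC827/GR lay above them all. The scaled ratio of HCC827/GR to HCC827 was 4.16 (3.84 to 4.50), below the intervals of both MET circRNAs, and it ranked number 100 of the 3744 circRNAs compared over the genome. In A549/DDP the ratio to A549 was 1.25 (1.11 to 1.41).

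ST7, suppressor of tumorigenicity 7, starts 0.16 Mb after MET, closer to it than TES. Its 7-exon circRNA (circRNA1242, chr7:117119561-117170976) had 349.5 counts in A549 and 340 in A549/DDP, against 981 in HCC827 and 846 in HCC827/GR. Its 3-exon circRNA (circRNA3598, chr7:117189321-117209922) had 84.5, 147, 322 and 271 counts in the same order. Both followed the cell line and not the MET circRNAs, since both HCC827 libraries were above both A549 libraries. HCC827/GR was at 1.14 times (1.04 to 1.25) and 1.11 times (0.943 to 1.31) HCC827, so the circRNAs on the 2 sides of MET differed by more than their counting error. HCC827 was at 2.35 times (2.08 to 2.66) and 3.20 times (2.52 to 4.14) A549.

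Farther from MET the circRNA hosts differed in direction, and the 5 hosts 5 to 10 Mb away summed to 1.13 times HCC827 (1.09 to 1.18) in HCC827/GR, with most of those counts from LAMB1. TSPAN12, a tetraspanin of norrin signalling 4.04 Mb after MET, had 2, 2, 36 and 0 counts, with the libraries always in the order A549, A549/DDP, HCC827, HCC827/GR. Against a floor of 3 counts in HCC827/GR, that circRNA was at least 9.08-fold lower there than in HCC827. IMMP2L, a mitochondrial inner membrane peptidase subunit 5.15 Mb before MET, had 111, 81, 448 and 3.5 counts, a ratio of 0.010 (0.0032 to 0.030) in HCC827/GR. TSPAN12 and IMMP2L were at their highest in HCC827 and at or near 0 in HCC827/GR. LAMB1, the laminin beta 1 chain 8.71 Mb before MET, had 4640, 4078.67, 4038 and 4012 counts, with a ratio of 1.31 (1.26 to 1.37). The bins on either side of the MET bin thus had ratios of 0.010 and 0, the lowest of the 32. They held few circRNAs, that of IMMP2L in the first and those of TSPAN12 and IQUB in the second. Their sums in HCC827 were 448 and 59 counts.

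**Figure D1:**
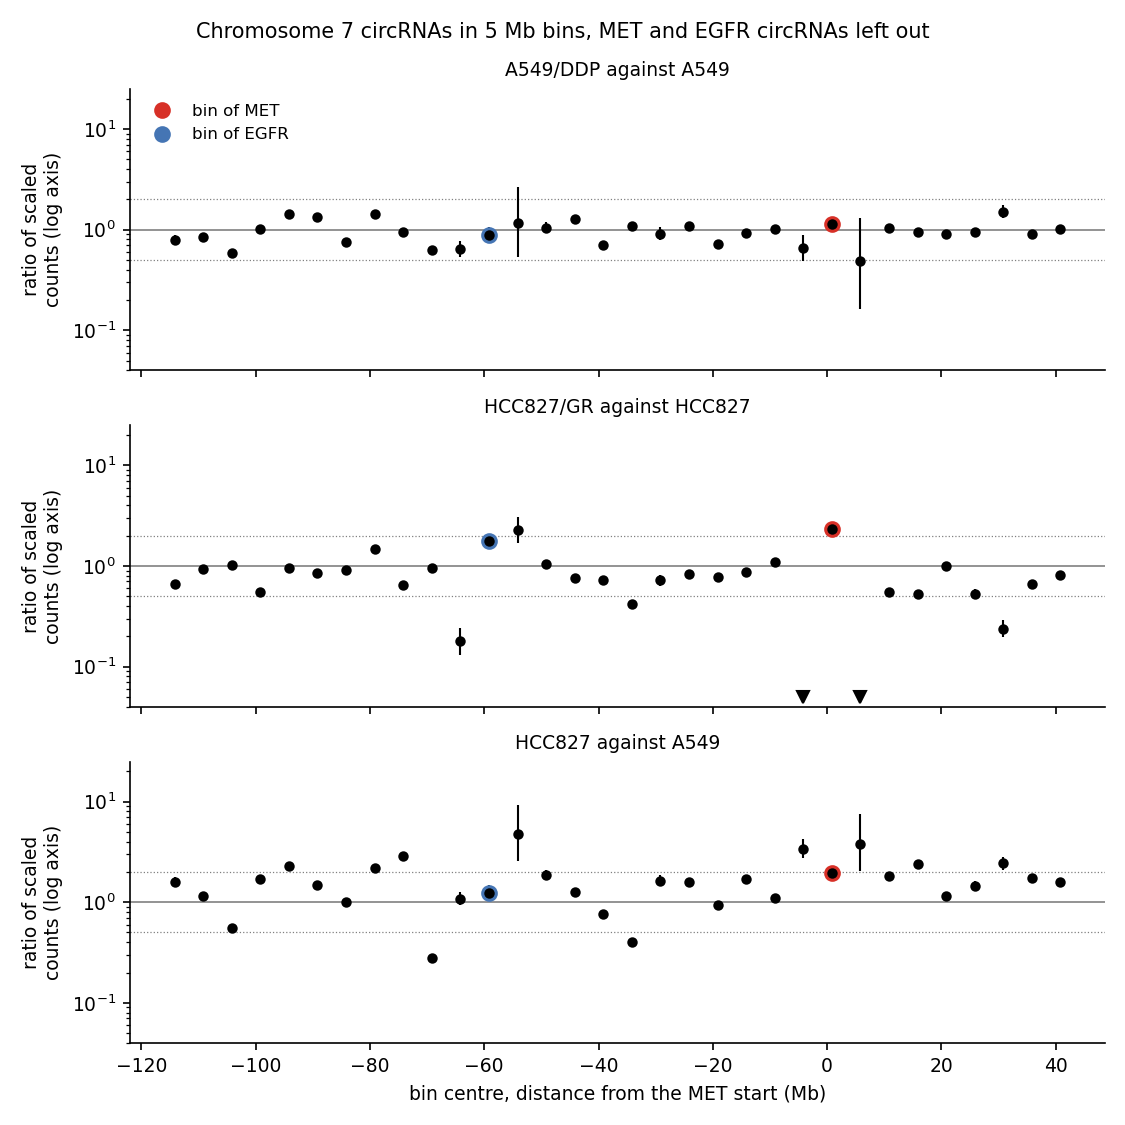
Ratio of summed circRNA counts, scaled to each library's total, in 5 Mb bins of chromosome 7 against the distance of the bin centre from the MET start in Mb, with MET and EGFR circRNAs left out. The vertical axis is logarithmic, bars are 95% Poisson intervals, dotted lines mark 0.5 and 2, and triangles mark bins below 0.02. In HCC827/GR against HCC827 the MET bin lies at 2.31 between 2 bins at 0.010 and 0, and the EGFR bin lies at 1.78. Those 2 bins hold 1 and 2 circRNAs, and the EGFR bin holds 1.

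**Figure D2:**
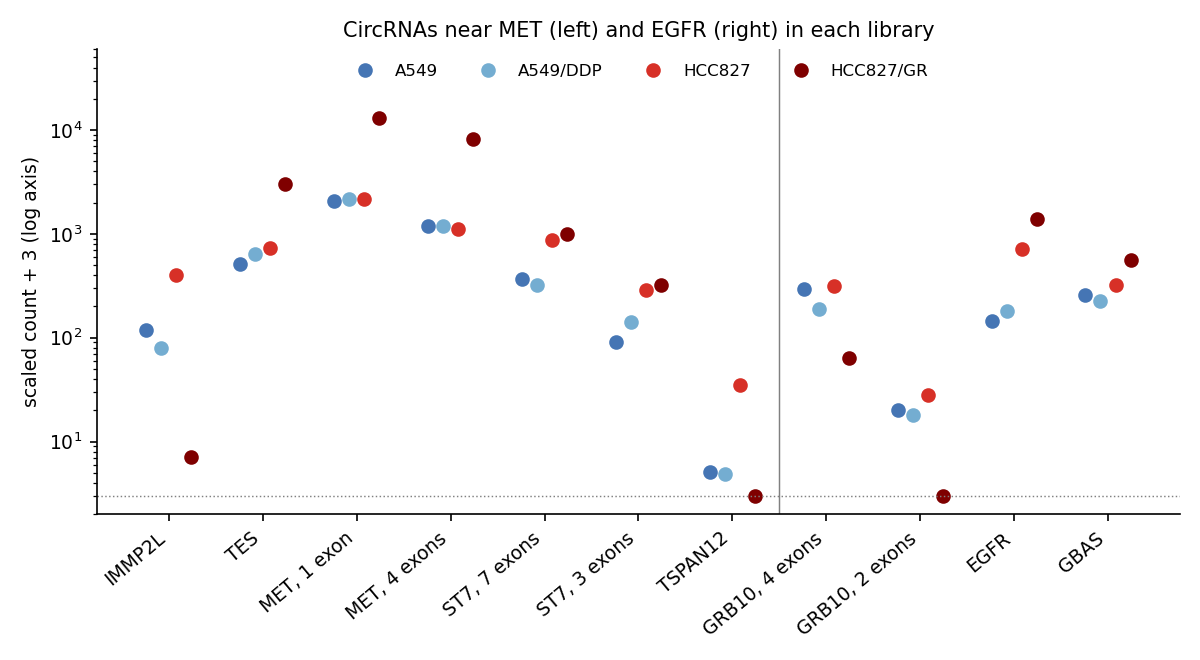
Counts of each circRNA near MET (left of the line) and EGFR (right), scaled to the mean library total with 3 added, on a log axis, 1 point per library. Points on the dotted line are libraries at 0 counts. TES follows the MET circRNAs in HCC827/GR, ST7 does not, and IMMP2L, TSPAN12 and GRB10 are lower there.

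Of the 4 circRNAs within 5 Mb of MET, 1 was past 2-fold higher and 1 past 2-fold lower in HCC827/GR, where 12.8% of all circRNAs compared were higher and 31.8% lower. None was past 2-fold in A549/DDP, where 3.12% were higher and 7.27% lower over the whole table. In HCC827 against A549, 3 of the 4 were higher and none lower, against 15.6% and 12.6% over the table. A list of 32 genes of the 7q31 region had circRNAs for 4 of its members, IMMP2L, TES, ST7 and TSPAN12, so CAV1, CAV2, CAPZA2, WNT2 and the rest of the region could not be read from circRNAs.

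Annotated lncRNAs gave a second readout near MET. The transcripts of its bin summed to 6.15 FPKM (fragments per kilobase of transcript, scaled to library depth) in A549 and 4.92 in A549/DDP, against 7.43 in HCC827 and 53.4 in HCC827/GR. HCC827/GR was at 7.11 times HCC827 after adding 0.1 FPKM to each sum, second of 30 chromosome 7 bins and number 11 of 539 over the genome, of which 16.5% were at 2 or more. The bins before and after it were at 3.79 and 3.88, so for lncRNAs, unlike circRNAs, the neighbouring bins were higher as well. Few genes made up these sums. The bin before held 29.8 FPKM in HCC827/GR, nearly all of it LINC00998, described below. The bin after held 3 transcripts, with 11.7 FPKM in HCC827/GR. A549/DDP was at 0.803 times A549 in the MET bin. FPKM were used as deposited. The median ratio of HCC827/GR to HCC827 over annotated transcripts at 1 FPKM or more in both was 1.38. Scaled to that median, the MET bin was at 5.17 times HCC827.

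In HCC827/GR most of the MET bin sum was AC002066.1, an lncRNA at the CAV2-DT locus next to the caveolin genes, whose proteins form membrane caveolae. Summed over its transcripts it stood at 1.66 FPKM in A549 and 1.19 in A549/DDP, against 0.039 in HCC827 and 34.8 in HCC827/GR. It was low in both A549 libraries, close to absent in HCC827 and high in HCC827/GR. Its transcript ENST00000439070 (chr7:116416117-116465276, minus strand, 3 exons, 0.21 Mb before MET) carried 0.47 read pairs in HCC827, where no fold can be given, and 358 in HCC827/GR. That transcript lies outside TES, but the full span of AC002066.1 overlaps TES. Reads of TES could thus be among the sum of AC002066.1. Without AC002066.1 the bin was at 2.50 times HCC827.

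ST7-OT4, a transcript inside ST7 0.16 Mb after MET, had 0.30, 0.22, 1.22 and 12.7 FPKM. In HCC827/GR all of it lay on the 1-exon transcript ENST00000597499, which was at 0 in the other libraries and carried 88.5 read pairs there. The other 2 ST7-OT4 transcripts were at 0 in HCC827/GR. ST7-AS1, at the start of ST7, had 0.82, 0, 2.72 and 0 FPKM, and AC106873.4, also inside ST7, had 0.43, 0.14, 2.38 and 0. ST7-AS2, with 4 transcripts inside ST7, had 0.35, 0.17, 0.33 and 0 FPKM. So the ST7 locus held 1 lncRNA gene with more signal in HCC827/GR and 3 that were listed at 0 there, and since strand-specific counting is not stated, none can be separated from ST7 reads.

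Before MET, RP11-667F14.1 across the TES start had 0.42, 0.36, 0.41 and 2.82 FPKM, with 13.7, 12.7, 16.1 and 94.6 read pairs. AC073130.3, which overlaps TES, had 1.81, 0.63, 0 and 2.78 FPKM on 2 transcripts. Both had their highest value in HCC827/GR, as the TES circRNA did, and reads of TES itself could be among theirs. AC006159.4, at the COMETT locus 0.10 Mb before MET, was above 0 in A549/DDP alone, at 1.23 FPKM. LINC00998, which RefSeq annotates as SMIM30, a gene for a small membrane protein 3.55 Mb before MET, had 7.90, 5.30, 7.31 and 29.6 FPKM. Its 3 lower libraries lay close together, and HCC827/GR was at 3.69 times HCC827 after adding 1 FPKM. These are sums, and its transcripts did not move together. At least 1 was past 2-fold lower in A549/DDP and higher in HCC827/GR, and at least 1 was the reverse.

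Over the 27 lncRNA transcripts within 5 Mb of MET, 14 reached 0.1 FPKM in HCC827 or HCC827/GR, of which 6 were past 2-fold higher and 7 past 2-fold lower in HCC827/GR. Over all annotated transcripts, these shares were 18.0% and 73.0%. For A549/DDP 6 of 19 transcripts were past 2-fold higher and 7 lower, against 24.4% and 38.4%, and in HCC827 against A549 8 of 18 were higher and 7 lower, against 35.8% and 42.4%.

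**Figure D3:**
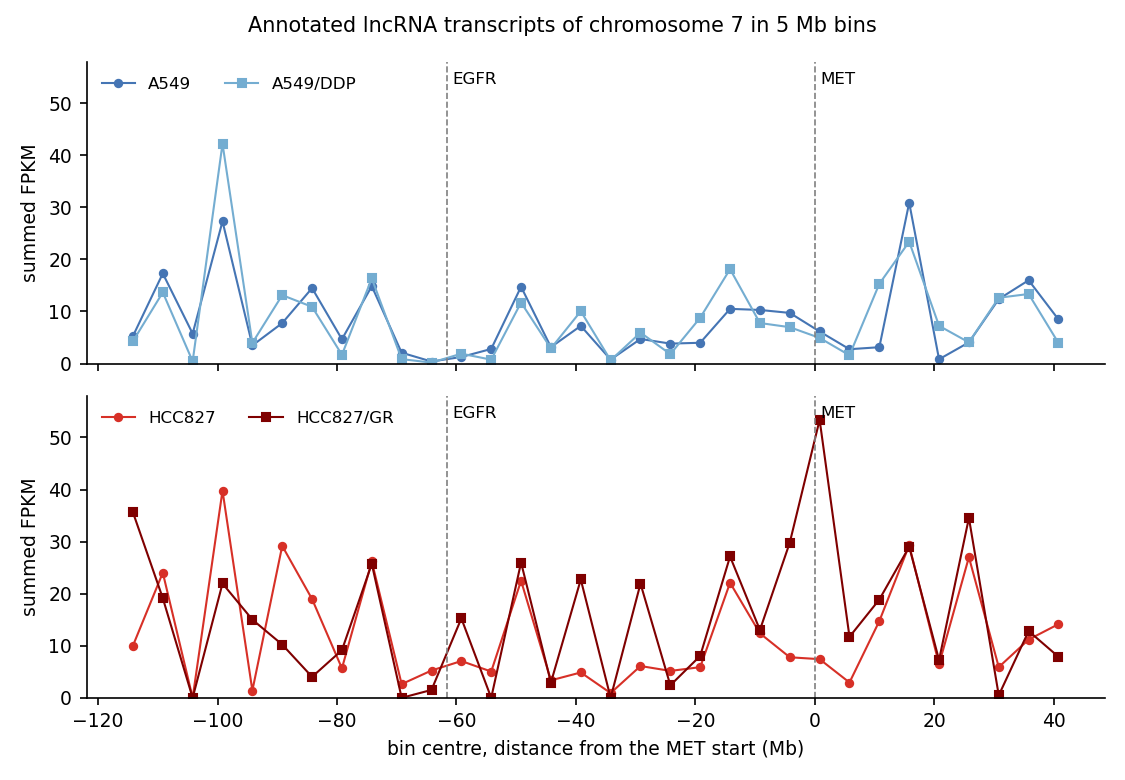
Summed FPKM of annotated lncRNA transcripts in 5 Mb bins of chromosome 7 for each library, against the distance of the bin centre from the MET start in Mb. Dashed lines mark MET and EGFR. The MET bin of HCC827/GR stands at 53.4 FPKM against 7.43 in HCC827, while both A549 libraries lie at 6.15 and 4.92.

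**Figure D4:**
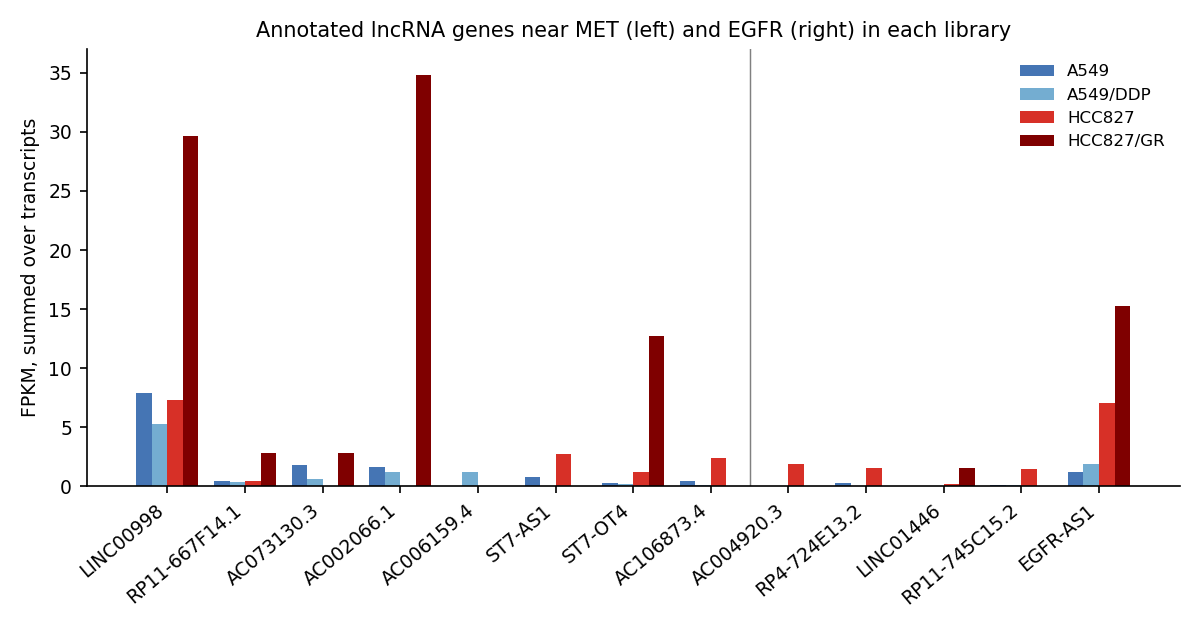
FPKM of annotated lncRNA genes within 5 Mb of MET (left of the line) and EGFR (right), summed over transcripts, 1 bar per library. AC002066.1, LINC00998, ST7-OT4 and EGFR-AS1 reach 34.8, 29.6, 12.7 and 15.3 FPKM in HCC827/GR, while ST7-AS1 and AC106873.4 are at 0 there.

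EGFR itself had 136 circRNA counts in A549 and 190 in A549/DDP, against 814 in HCC827 and 1185 in HCC827/GR. It was higher in both HCC827 libraries than in both A549 libraries, with HCC827 at 5.02 times A549 (4.18 to 6.07) and HCC827/GR at 1.92 times HCC827 (1.76 to 2.11). A549/DDP was at 1.25 times A549 (1.001 to 1.58).

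The only circRNA in the EGFR bin, from 55 to 60 Mb, came from GBAS, a mitochondrial protein gene 0.77 Mb after EGFR. This 2-exon circRNA (circRNA1178, chr7:55982210-55983868) had 242 counts in A549 and 238 in A549/DDP, against 358 in HCC827 and 482 in HCC827/GR. HCC827/GR was at 1.78 times HCC827 (1.55 to 2.05), number 3 of 32 chromosome 7 bins and number 42 of 527 over the genome, and this interval overlapped that of EGFR. HCC827 was at 1.24 times A549 (1.05 to 1.47), an interval that did not reach that of EGFR. The excess of EGFR in HCC827 over A549 was thus not seen at this size in GBAS, and A549/DDP was at 0.883 times A549 (0.735 to 1.06).

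GRB10, an adaptor that binds activated receptor tyrosine kinases, lies 4.31 Mb before EGFR and had its lowest counts where EGFR had its highest. Its 4-exon circRNA (circRNA1175) had 279.5, 197, 355.5 and 52 counts, and its 2-exon circRNA had 16.5, 16, 28.5 and 0. HCC827/GR was the lowest library for both, at 0.193 times HCC827 (0.141 to 0.259) for the first and at least 7.19-fold lower for the second. HCC827 was at 1.07 times A549 (0.909 to 1.25) for the first. The window of 5 Mb to either side of EGFR, which holds both GRB10 and GBAS, was at 0.951 times HCC827 in HCC827/GR, so the ratio above 1 in the EGFR bin is that of GBAS. ZNF680, a zinc finger gene 9.33 Mb after EGFR, had 13, 17, 73 and 125 counts and formed the only other chromosome 7 bin at 2 or more in HCC827/GR, at 2.26 (1.68 to 3.06).

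EGFR-AS1, an antisense transcript inside EGFR (ENST00000442411, chr7:55179750-55188934, minus strand), stood at 1.19 FPKM in A549 and 1.89 in A549/DDP, against 7.03 in HCC827 and 15.3 in HCC827/GR. The order of the libraries was that of the EGFR circRNA, and the read pairs behind it numbered 48.2, 81.1, 342 and 630. Its reads cannot be told apart from those of EGFR, since strand is not stated. It made up nearly all of the lncRNA signal of the EGFR bin, which was at 2.14 times HCC827 in HCC827/GR and at 5.26 times A549 in HCC827. Without EGFR-AS1 these ratios were 0.732 and 0.810, but both rest on the 0.1 FPKM added to each sum. Of the 3 transcripts in the bin, only 1 reached 0.1 FPKM in each comparison, so the rest was too low to read. With EGFR-AS1 kept in, scaling to the median lncRNA ratio of each pair gave 1.56 and 4.37.

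The other lncRNAs within 5 Mb of EGFR were low in every library. LINC01446, 1.21 Mb before EGFR, had 0, 0, 0.15 and 1.52 FPKM. RP11-745C15.2, at the SEC61G-DT locus 0.21 Mb before EGFR, had 0.076, 0.066, 1.46 and 0. AC004920.3 had 0, 0, 1.92 and 0, and a further lncRNA, inside COBL, had 0.27, 0.043, 1.53 and 0. These last 3 were highest in HCC827 and listed at 0 in HCC827/GR. Of the 6 transcripts that reached 0.1 FPKM in the HCC827 pair, 2 were past 2-fold higher and 4 lower in HCC827/GR, beside 18.0% and 73.0% of all annotated transcripts.

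**Figure D5:**
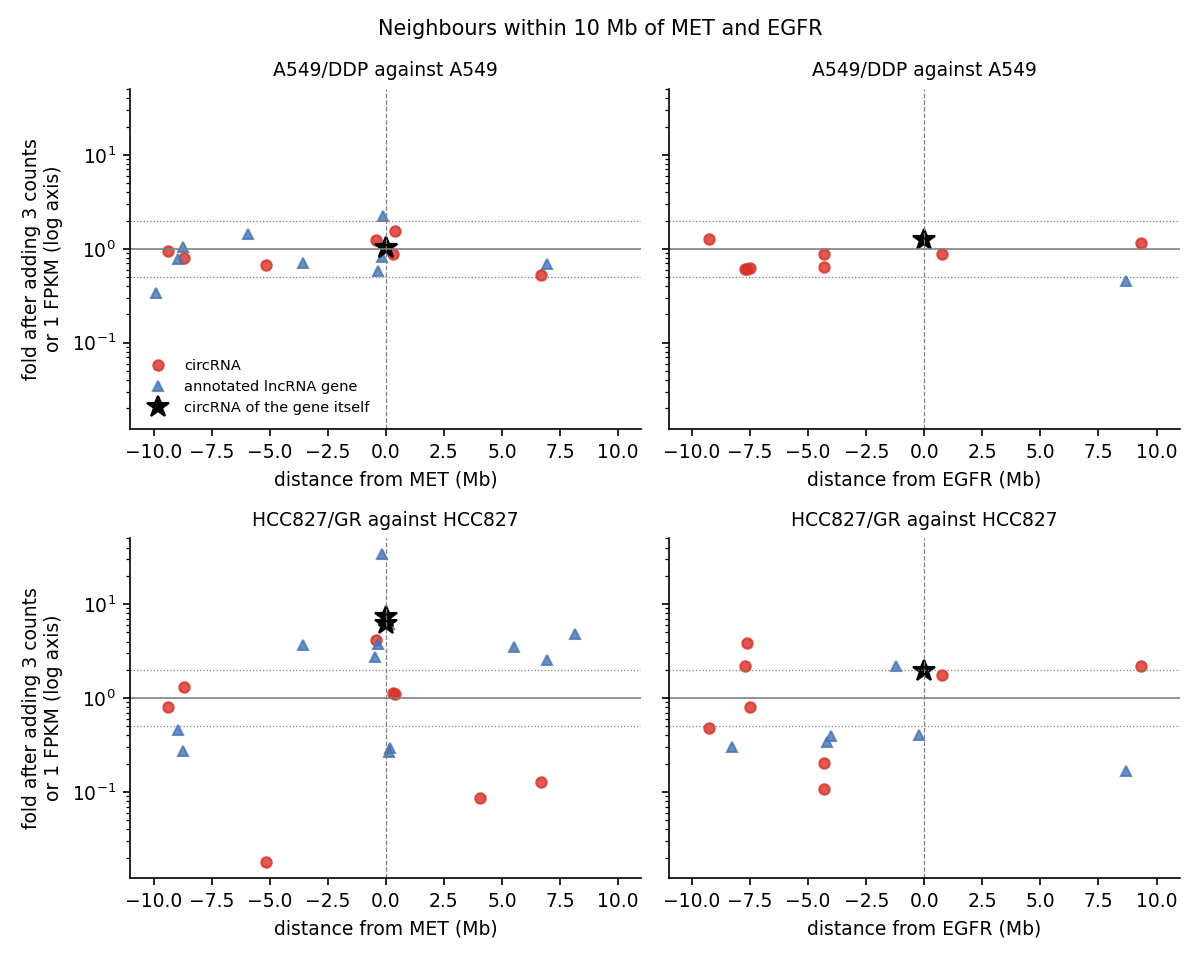
Fold of circRNAs (after adding 3 to scaled counts) and of annotated lncRNA genes (after adding 1 FPKM) within 10 Mb of MET (left panels) and EGFR (right panels), against the distance in Mb, for A549/DDP against A549 (top) and HCC827/GR against HCC827 (bottom). Stars are circRNAs of the gene itself, dotted lines mark 0.5 and 2, and the EGFR-AS1 point lies at the EGFR star. In HCC827/GR the points on the same side of MET lie both above 2 and below 0.5.

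Chromosome 7 as a whole did not follow MET or EGFR. The member circRNAs summed to 0.849 times HCC827 (0.841 to 0.857) in HCC827/GR, to 0.916 times A549 (0.907 to 0.924) in A549/DDP, and to 1.20 times A549 (1.19 to 1.21) in HCC827. The other 22 chromosomes in the table lay between 0.714 and 1.37, between 0.754 and 1.46, and between 0.523 and 1.49 in these comparisons, so chromosome 7 was inside their range in each. Below 60 Mb, the side of EGFR, HCC827/GR was at 0.935, and above 60 Mb, the side of MET, it was at 0.814. The side that holds MET was thus the lower one in HCC827/GR, while it was the higher one in A549/DDP, at 0.944 against 0.856, and in HCC827 against A549, at 1.26 against 1.08.

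Counted one by one, 22 of the 217 chromosome 7 circRNAs compared were past 2-fold higher in HCC827/GR and 74 lower, that is 10.1% and 34.1% against the 12.8% and 31.8% of the table. Of the 74 that were lower, 31 were at 0 counts in HCC827/GR. In A549/DDP 3 of 220 circRNAs were higher and 14 lower, or 1.36% and 6.36%, beside 3.12% and 7.27% of the table. In HCC827 against A549, 45 of 223 were higher and 19 lower, or 20.2% and 8.52%, beside 15.6% and 12.6%. The median fold of the members was 0.725 in HCC827/GR against 0.813 over the table, 0.988 against 1.02 in A549/DDP, and 1.49 against 1.16 in HCC827. Among lncRNA transcripts 54 of 243 (22.2%) were higher and 168 (69.1%) lower in HCC827/GR, near the 18.0% and 73.0% of the table, and 159 of these 168 were listed at 0 there. In A549/DDP 86 of 330 (26.1%) were higher and 133 (40.3%) lower, beside 24.4% and 38.4%. Of these, 94 of the lower were listed at 0 in A549/DDP and 48 of the higher at 0 in A549. In HCC827 against A549 126 of 344 (36.6%) were higher and 133 (38.7%) lower, beside 35.8% and 42.4%. Here 116 of the lower were listed at 0 in HCC827 and 58 of the higher at 0 in A549.

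In structure the members resembled the rest of the circRNA table. They had a median of 4 exons and a median span of 9.86 kb over 139 host genes, against 4 exons and 9.20 kb elsewhere, and 6.64% were of a single exon against 7.56%. A fractional count in some library was found for 56.6% of the members, circRNAs that are the only one of their host, such as that of TES, among them. Of the lncRNA transcripts, which came from 321 genes, 43 were above 0 in all 4 libraries.

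The chromosome 7 circRNAs with the highest counts came mostly from genes outside the windows of both receptors. LAMB1 was among the first 5 by count in all 4 libraries. A TNS3 circRNA (circRNA1174), from a tensin gene 7.49 Mb before EGFR, had 5959, 4094, 1934 and 1161 counts. The circRNA of PDK4, a kinase that shuts pyruvate dehydrogenase, had 4873.5, 1976, 3337 and 1025. Both circRNAs were lower in each resistant line than in its parent. PDK4 passed 2-fold in both pairs, at 0.364 (0.345 to 0.384) and 0.406 (0.378 to 0.436). Summed, the 3 circRNAs of TNS3 were at 0.613 times A549 (0.592 to 0.635) in A549/DDP. In HCC827/GR that sum was at 1.05 times HCC827 (0.988 to 1.12), so TNS3 as a gene was not lower there. ANLN, the cytokinesis protein anillin, had 783.333, 1481, 3361 and 2913 counts, and CUX1, a homeodomain factor, 1519, 1181, 3575 and 2272, both higher in the HCC827 libraries. TES was among the first 5 in HCC827/GR and in no other library.

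The circRNAs that differed most in HCC827/GR were spread along the chromosome. CEP41, a centrosomal protein gene, had 38, 43, 7 and 110 counts, a ratio of 20.8 (9.75 to 52.9). MAD1L1, of the spindle checkpoint, had 15, 27, 32 and 145, a ratio of 5.99 (4.06 to 9.08). At the other end, TNPO3, a nuclear import receptor, had 252, 292, 418 and 0 counts, at least 105-fold lower, and a HECW1 circRNA (circRNA3587), from a ubiquitin ligase gene, had 120.167, 181.5, 343.5 and 0, at least 86.6-fold lower. CCZ1, with 298, 353, 325 and 0 counts, has a near-identical copy and its count is uncertain. The TNPO3, HECW1 and CCZ1 circRNAs had 120 or more counts in every other library and none in this one, and whether HCC827/GR lacks such rows for a reason of the library was not tested.

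In A549/DDP the differences were smaller and fewer. CDK14, a cyclin-dependent kinase gene, had 1, 41, 0 and 0 counts, and DNAJC2, a ribosome-associated chaperone, had 64, 192.5, 198.5 and 245.5, at 2.70 times A549 (2.02 to 3.63). THSD7A, a thrombospondin-domain gene, had 3 circRNAs, each at 0 in both HCC827 libraries. Its circRNA2848 had 1083 counts in A549 and 244.5 in A549/DDP, a ratio of 0.203 (0.175 to 0.233). A circRNA of SDK1, a cell adhesion gene, had 164.5, 18.5, 600 and 298, at 0.101 times A549 (0.057 to 0.161). Past 2-fold lower in both resistant lines were 4 circRNAs, those of PDK4, PODXL and ZP3 and another SDK1 circRNA, and none was past 2-fold higher in both. That is 1.88% of the 213 members compared in both pairs, beside 2.88% lower and 0.403% higher in both over the table.

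Other cancer genes of chromosome 7 were read from a list of 28, of which 13 had a circRNA and 12 were compared in HCC827/GR. Of these, 1 host was higher and 4 were lower, against 13.0% and 29.7% of all hosts. The higher one was HIPK2, a kinase of the p53 response, with 919.5, 1178, 271 and 780 counts and a ratio of 3.80 (3.31 to 4.38), which brought HCC827/GR back near the A549 libraries. EZH2, the histone H3 lysine 27 methyltransferase, had 3 circRNAs whose sum was 256, 431, 743 and 134, at 0.238 times HCC827 (0.197 to 0.287). CREB3L2, a membrane-bound transcription factor, had 395, 235, 1405 and 128 counts for its 6-exon circRNA. Both were highest in HCC827 and lowest in HCC827/GR. In A549/DDP none of 12 compared hosts was past 2-fold, against 2.90% higher and 8.16% lower over all hosts. A list of 29 genes of 7p11 to 7p12 had circRNAs for GBAS, GRB10 and TNS3 only, of which none was higher and 1 was lower in HCC827/GR.

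Among lncRNAs outside the MET and EGFR windows, APTR, a transcript linked to p21 control, had 5.01, 5.88, 4.59 and 22.7 FPKM, and TP53TG1, a p53 target, had 4.24, 3.22, 2.57 and 21.8. Both had their highest value in HCC827/GR and lie 39.0 and 29.3 Mb from MET. HOTAIRM1 and HOXA11-AS, antisense to the HOXA cluster, had 9.92 and 6.90 FPKM in HCC827 and 0 in HCC827/GR, while HOXA-AS2 of the same cluster had 0.847 in HCC827 and 9.35 in HCC827/GR. LINC-PINT, a p53-induced lncRNA, had 3.44, 1.54, 7.28 and 0. AC005062.2 was the most abundant annotated lncRNA gene of the chromosome in the first 3 libraries, at 22.0, 40.1 and 35.8 FPKM, and stood at 20.9 in HCC827/GR. RP11-132A1.4 had 1.84, 11.5, 10.7 and 21.6 FPKM, with A549/DDP at 4.41 times A549 and HCC827/GR at 1.93 times HCC827 after adding 1 FPKM. High lncRNA values in HCC827/GR were therefore not limited to the surroundings of MET. These values were not scaled to the median ratio of 1.38 over annotated transcripts. Of the 30 chromosome 7 bins, 8 were at 2 or more and 7 at 0.5 or less, where 16.5% and 35.3% of genome bins were so.

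Between the parental lines, HCC827 was at 2 or more times A549 in 8 of the 32 circRNA bins and at 0.5 or less in 2, where 10.1% and 10.5% of genome bins were so. The MET bin was at 1.95 (1.80 to 2.11) and the EGFR bin at 1.24 (1.05 to 1.47), while the MET circRNAs were at 1.03 and 0.948 and EGFR at 5.02. In the parental comparison the bin of MET was thus higher than MET, and the bin of EGFR lower than EGFR. Scaling by the median ratio of all circRNAs, which shifts this comparison by 0.22 on the log2 scale, brought the whole of chromosome 7 from 1.20 to 1.03.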

How the data were processed

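Ribosomal RNA-depleted total RNA of 4 cell lines was sequenced, 1 library per condition. The authors trimmed reads with Cutadapt, aligned them with Bowtie 2 and TopHat2, and assembled and quantified transcripts with StringTie and Ballgown. TopHat is also named in the submitters' processing notes. Versions, strand setting and build are not stated in the sources used here. The deposited circRNA table holds the authors' estimated counts, many of them fractional, and their FPKM. The tool that counted them is not stated in the sources used here, and reads of linear mRNA on the same exons were not separated here. The deposited lncRNA table holds the authors' StringTie FPKM and coverage per transcript, and CPC and CNCI scores deposited by the authors, which were not used. The build was checked by name, and 99.0% of 209 circRNAs and 99.4% of 155 lncRNA transcripts with a RefSeq name overlapped that gene on GRCh38.p14.

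Members and lists were chosen with earlier results of these data known. Counts were scaled to the circRNA total of each library, and a circRNA was compared if it had 10 counts in 1 library of the pair. A difference was called past 2-fold after adding 3 to the scaled count, or 0.1 to the FPKM of transcripts at 0.1 or more; gene sums had 1 FPKM added. Ratios of counts carry exact conditional Poisson intervals at 95%. CircRNA bins entered with 20 counts over the pair, and lncRNA bins with a sum of 1 FPKM in at least 1 library of the pair. Read pairs are bases on a transcript over 302, the commonest value of single-exon transcripts. Named genes were those within 5 Mb of MET or EGFR with 10 counts or 1 FPKM. Elsewhere they were the 5 highest per library and 5 largest changes per pair, with the values of a selection given. IMMP2L, LAMB1 and ZNF680 were taken from the neighbours 5 to 10 Mb away, and the list genes HIPK2, EZH2 and CREB3L2 were added for their values. Alternatives were median ratio scaling, other bins, thresholds, pseudocounts and filters, gene sums, the authors' FPKM, and leaving out the most abundant item. The tools were Python 3.11.15, scipy 1.17.1, numpy 2.4.6, matplotlib 3.10.9 and pandas 2.3.3.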

Additional observations from a re-analysis of the deposited data

Results flagged for a closer look

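The CCT6P1 circRNA, from a pseudogene of a chaperonin subunit, was the only chromosome 7 circRNA past 2-fold in opposite directions in the resistant lines. It had 22 counts in A549 and 5 in A549/DDP, against 8 in HCC827 and 82 in HCC827/GR, a fold of 0.295 in A549/DDP and of 9.80 in HCC827/GR after adding 3 to the scaled count. With 1 library per condition this difference was not tested, and reads of related copies could be shared with it.

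Unannotated transcripts, which the comparisons above left out, also carried signal in the bins of the receptors. In the MET bin the bases on them, per base aligned, were 3.27 times as many in HCC827/GR as in HCC827, where the ratio was 1.003 over chromosome 7 and 1.51 over the table. In the EGFR bin they were 3.70 times as many in A549/DDP as in A549, against 1.53 over chromosome 7 and 1.10 over the table. The other ratios of resistant to parental line were below 1, at 0.303 for the EGFR bin in HCC827/GR and 0.744 for the MET bin in A549/DDP. In summed FPKM the EGFR bin went the other way, from 149 in HCC827 to 217 in HCC827/GR. Chromosome 7 stood at 6353 and 9699 FPKM in these libraries. The MET bin in both pairs and the EGFR bin in A549/DDP had the same direction in either measure. None of these differences was tested.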

How the results depend on the processing

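With 1 library per condition no library could be left out. No paired analysis was possible because each condition had 1 library. Of 171 alternatives over 27 results, 102 left the value within its error or the count within 1.5 times, 67 moved it and 2 reversed it. The authors' library total and the requirement of a value above 0 in both libraries were chosen after seeing the data.

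In HCC827/GR against HCC827, the circRNA ratio of the MET bin became 1.91 in 10 Mb bins, 1.87 on the authors' FPKM, 1.13 without its most abundant circRNA or host and 4.99 with MET kept in. That of the EGFR bin became 0.951 in a 5 Mb window or 10 Mb bins, and it has no value without its only circRNA. The ratio of chromosome 7 became 0.881 under median ratio scaling and 0.812 on the authors' library total. The lncRNA ratio of the MET bin became 5.17 under median ratio scaling, 5.44 in the window or 10 Mb bins and 2.50 without its most abundant gene, and that of the EGFR bin 1.56, 1.36 and 0.732, the last reversed. The 0.732 rests on the 0.1 FPKM added, since no transcript left in that bin reached 0.1 FPKM. At 4-fold, 6 circRNAs were higher and 46 lower, and 34 lncRNA transcripts higher. With a value above 0 in both libraries 35 transcripts were higher and 9 lower, and the lower were 71 with 1 FPKM added and 73 with a filter of 1 FPKM.

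In A549/DDP against A549, the circRNA ratio of the MET bin became 1.29 on the authors' FPKM, 1.24 on their library total and 1.01 without its most abundant circRNA or host. The ratio of chromosome 7 became 0.893 under median ratio scaling, 0.946 without the most abundant host and 1.002 on the authors' library total. The lncRNA ratio of the EGFR bin became 0.633 without EGFR-AS1, a value that rests on the 0.1 FPKM added. The circRNAs called higher became 1 at 4-fold, 5 with 1 count added and 10 on the authors' library total, and those called lower 7 at 4-fold. The lncRNA transcripts called higher and lower became 22 and 16 with 1 FPKM added, 34 and 24 with a filter of 1 FPKM, 45 and 59 at 4-fold, 55 and 84 as gene sums and 38 and 39 above 0 in both libraries.

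In HCC827 against A549, the circRNA ratio of the MET bin became 1.67 under median ratio scaling, 1.22 with MET kept in, 1.79 on the authors' library total and 2.52 without its most abundant circRNA or host. That of the EGFR bin became 2.60 with EGFR kept in. The ratio of chromosome 7 became 1.03 under median ratio scaling, 1.30 without the most abundant host and 1.10 on the authors' library total. The lncRNA ratio of the MET bin became 1.63 without its most abundant gene, and that of the EGFR bin 0.810 without EGFR-AS1, a reversal, and 3.57 with 1 FPKM added. The 0.810 rests on the 0.1 FPKM added. The circRNAs called higher became 29 under median ratio scaling and 4 at 4-fold. The lncRNA transcripts called higher and lower became 44 and 20 with 1 FPKM added, 65 and 22 with a filter of 1 FPKM, 78 and 68 at 4-fold and 68 and 17 above 0 in both libraries, and 76 were lower as gene sums.

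The moves without the most abundant circRNA, host or gene are that item's share of the sum, which raised the ratio in some bins and lowered it in the MET bin of HCC827 against A549. The cause of the other moves was not tested. The depth limits circRNAs under about 10 counts and lncRNAs with few read pairs, and 3 counts were taken as the limit of a 0.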

Other observations

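Within 1 Mb of MET, unannotated transcripts were given gene names by the authors, and several were named for the caveolin and ST7 genes. The 19 transcripts named for CAV2 carried 57.6 read pairs in A549 and 57.1 in A549/DDP, against 35.8 in HCC827 and 399 in HCC827/GR, and the 8 named for ST7 carried 1, 5.55, 179 and 540.5. The transcript named for TFEC, a transcription factor gene on the far side of TES, was above 0 in HCC827/GR alone, with 144 read pairs. Those named for CAV1, CAPZA2 and CTTNBP2 carried 60.6, 39.1 and 107 read pairs in HCC827 and 0 in HCC827/GR. High and absent transcripts thus lay along the same stretch in HCC827/GR. Absence was common there, as 5956 of the 43374 unannotated transcripts of the whole table were above 0, against 23635 in HCC827. Of the transcripts named for CAV2, 3 of 19 were above 0 in HCC827/GR, and of those named for ST7 4 of 8.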
